A study of Mus musculus with 22 samples.

Results

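The gasdermin family was followed in distal colon RNA from 3 groups of mice. Its members were the rows of the deposited count table that carry the gene symbols Gsdma, Gsdmc, Gsdmc2, Gsdmc3, Gsdmc4 and Gsdmd, and all 6 were found among the 46078 genes of the table. The rule uses their names and none of their values, although it was made with earlier results of these data known. The 22 libraries came from 8 C57BL/6 mice aged 14 weeks (4 males, 4 females), 7 Winnie mice aged 14 weeks (3 males, 4 females) and 7 Winnie-Prolapse mice aged 18 weeks (4 males, 3 females). Winnie mice carry a missense mutation of the mucin gene Muc2 in every cell of the body and develop colitis spontaneously, and the Winnie-Prolapse group holds Winnie mice that had also developed a prolapse. The comparisons ask how colonic gene expression differs between healthy colon, colitis and colitis with prolapse. Age and prolapse cannot be told apart, since only the Winnie-Prolapse mice were 18 weeks old.

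Gasdermins are cytosolic proteins whose amino-terminal part forms pores in membranes once a protease has cut it free from the carboxy-terminal part. Gsdmd is cut by caspase-1 and by the caspase encoded by Casp4 downstream of inflammasomes, and its pores release interleukin-1 beta and interleukin-18 and can end in pyroptosis, a lytic cell death. The Gsdmc genes are expressed in intestinal epithelium and are known targets of type 2 cytokine signalling, while Gsdma is best known from the upper layers of skin and stomach epithelium.

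On the mouse build GRCm38, with the GENCODE M21 annotation, the 4 Gsdmc genes lie side by side on the minus strand of chromosome 15. Gsdmc (ENSMUSG00000079025) covers chr15:63775968-63808759, Gsdmc2 (ENSMUSG00000056293) chr15:63824346-63845177, Gsdmc3 (ENSMUSG00000055827) chr15:63857724-63878558 and Gsdmc4 (ENSMUSG00000055748) chr15:63891264-63912297. Gsdmd (ENSMUSG00000022575) lies on the plus strand of the same chromosome, at chr15:75862327-75867408, and Gsdma (ENSMUSG00000017204) on the plus strand of chromosome 11, at chr11:98664351-98677708. No other annotated gene overlaps any of the 6.

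The copies in the cluster are close relatives, which bears on how reads can be assigned to them. Over the longest annotated coding sequences, Gsdmc2 and Gsdmc3 were 97.1% identical (1398 of 1440 aligned bases). Gsdmc4 was 93.8% identical to each of them. Gsdmc stood further off, at 87.0% to Gsdmc2 and 88.1% to Gsdmc4. Against Gsdmd and Gsdma the identity of the Gsdmc copies was 61.4% to 63.5%. The first 90 coding bases are shown because they hold the start of the pore-forming part and make this order visible, with capitals at the bases that differ from Gsdmc2.
Gsdmc2: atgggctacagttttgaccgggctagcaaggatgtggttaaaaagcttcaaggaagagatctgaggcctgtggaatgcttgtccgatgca
Gsdmc3: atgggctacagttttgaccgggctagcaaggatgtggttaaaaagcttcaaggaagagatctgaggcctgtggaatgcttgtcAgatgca
Gsdmc4: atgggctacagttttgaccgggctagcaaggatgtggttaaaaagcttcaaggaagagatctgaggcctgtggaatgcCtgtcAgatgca
Gsdmc: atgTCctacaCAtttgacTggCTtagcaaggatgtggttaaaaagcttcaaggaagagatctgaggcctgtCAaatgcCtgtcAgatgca

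In this stretch Gsdmc3 differed from Gsdmc2 at 1 base, Gsdmc4 at 2 and Gsdmc at 11. Of all 100-base windows of the annotated transcripts, 28.6% of those of Gsdmc2 and 28.4% of those of Gsdmc3 were found unchanged in another gasdermin gene or pseudogene. The share was 20.2% for Gsdmc4, 7.03% for Gsdmc, 1.83% for Gsdma and 0% for Gsdmd. How reads that fit several genes were counted is not given in the sources used here, so the split of counts among Gsdmc2, Gsdmc3 and Gsdmc4 is uncertain. Their sum does not depend on that split, but would miss such reads if they were left uncounted.

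Gsdmc3 was the copy with the largest fall between groups on the log2 scale. It is the 1 member whose gene start has an entry in the RefSeq promoter set used here (build GRCm38.p6). The 250 bases before its start, chr15:63878559-63878808 on the minus strand, read as follows, with a TATAA match in capitals.
Gsdmc3 promoter: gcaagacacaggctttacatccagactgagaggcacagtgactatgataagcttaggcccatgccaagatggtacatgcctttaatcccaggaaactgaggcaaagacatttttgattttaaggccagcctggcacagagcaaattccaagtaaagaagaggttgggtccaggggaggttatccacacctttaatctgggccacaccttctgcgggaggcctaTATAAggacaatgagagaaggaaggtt

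The TATAA match began 27 bases before the start, and 22.8% of 32851 promoters of this length hold TATAA on either strand. A STAT6-type motif (TTC and GAA with 4 bases between them) and an IRF-type motif (GAAA and GAAA with 2 bases between) were also searched on both strands and had no match in this window. They occur in 5.9% and 3.0% of all promoters of this length.

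The family was led by the Gsdmc cluster and by Gsdmd. Per kilobase of merged exons, the mean level in C57BL/6 colon was highest for Gsdmc4, at 457 ± 151 CPM per kb (CPM are counts scaled by the library total, SD, n = 8). Gsdmc2 followed at 186 ± 47.8 CPM per kb and Gsdmc3 at 143 ± 51.0 CPM per kb. Gsdmd stood at 84.3 ± 15.7 CPM per kb and Gsdma at 1.26 ± 0.567 CPM per kb, and Gsdmc was close to 0 with 0.00893 ± 0.0151 CPM per kb. Gsdmc4 was above Gsdmc2 and Gsdmc2 above Gsdmc3 in 8 of 8 C57BL/6 libraries, and Gsdmc3 was above Gsdmd in 7 of 8. In Winnie-Prolapse colon Gsdmd was second in this order, at 122 ± 27.4 CPM per kb (SD, n = 7), above Gsdmc2 in 6 of 7 libraries. The order within each group was the same with coding length in place of exon length. Together the 6 genes held 0.192% of all C57BL/6 counts (SD 0.0544, n = 8), 0.151% of Winnie counts (SD 0.0332, n = 7) and 0.110% of Winnie-Prolapse counts (SD 0.0299, n = 7).

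Library totals ran from 24.8 to 36.3 M counts, and the upper limit set by a count of 0 (3 counts) was 0.0825 to 0.121 CPM in a library (counting error only). The epithelium list (7 genes, among them Krt8, Krt19 and Epcam, which mark any simple epithelium) summed to 7987 to 14577 CPM, and the surface colonocyte list, closer to the labelled tissue, to 470 to 9515 CPM. Several libraries stood apart. C57BL/6 replicate 7 had 3.80 CPM of Ly6g, the gene that makes up nearly all of the neutrophil list sum in C57BL/6, against a group median of 286 CPM, while S100a8 was at most 0.617 CPM in any C57BL/6 library. Its smooth muscle sum was the highest of all at 12048 CPM. Whether this library is in every respect what its label says was not tested. The sum of 8 squamous epithelium genes, led by Krt14 and Krt5, was at least 178 CPM in 5 Winnie-Prolapse libraries (replicates 2, 4, 5, 6 and 7). It was 52.9 CPM in Winnie replicate 2, and at most 4.054 CPM in the other 16. Milk protein genes held 189276 CPM in Winnie-Prolapse replicate 6. Squamous and milk protein genes are not markers of colon epithelium, and where their RNA came from was not tested. Leaving out the milk protein genes moved no fitted fold change of a gasdermin by more than 0.0201 on the log2 scale. Levels in CPM use library totals that still count these genes. The TMM factor of Winnie-Prolapse replicate 6 was 0.821, so its CPM are lower than with TMM scaling. Values without C57BL/6 replicate 7 and without the 5 libraries rich in squamous genes stand beside those of the 5 gasdermins tested in Winnie-Prolapse against C57BL/6. In whole tissue, fewer cells of a type and less RNA per cell cannot be told apart.

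Gsdmc2, Gsdmc3 and Gsdmc4 were lower in Winnie-Prolapse than in C57BL/6 colon, with Winnie in between, and Gsdmd was higher. Gsdmc and Gsdma were high only in some Winnie-Prolapse libraries. In Winnie-Prolapse against C57BL/6, 0 of the 5 gasdermins tested passed the study's limits (adjusted p under 0.001 and at least 1.5-fold), which 18.3% of all genes passed, while 5 of 5 passed an adjusted p under 0.05 with the same fold limit, as 34.4% of all genes did. Gsdmc2, Gsdmc3 and Gsdmc4 are near copies that may share reads, so the 5 are not separate measurements. The 5 of 5 held in 18 of 26 alternative fits. It fell to 4, without Gsdmd, on library totals and without any 1 of C57BL/6 replicate 7, Winnie-Prolapse replicate 3 and Winnie-Prolapse replicate 7, and to 4, without Gsdma, when Winnie-Prolapse replicate 2 was left out. In males alone Gsdmc2, Gsdmc3 and Gsdmc4 passed, in females alone only Gsdmd, and without the 5 libraries rich in squamous genes only Gsdmd. The plot of the levels by library shows every value behind these statements.

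**Figure D1:**
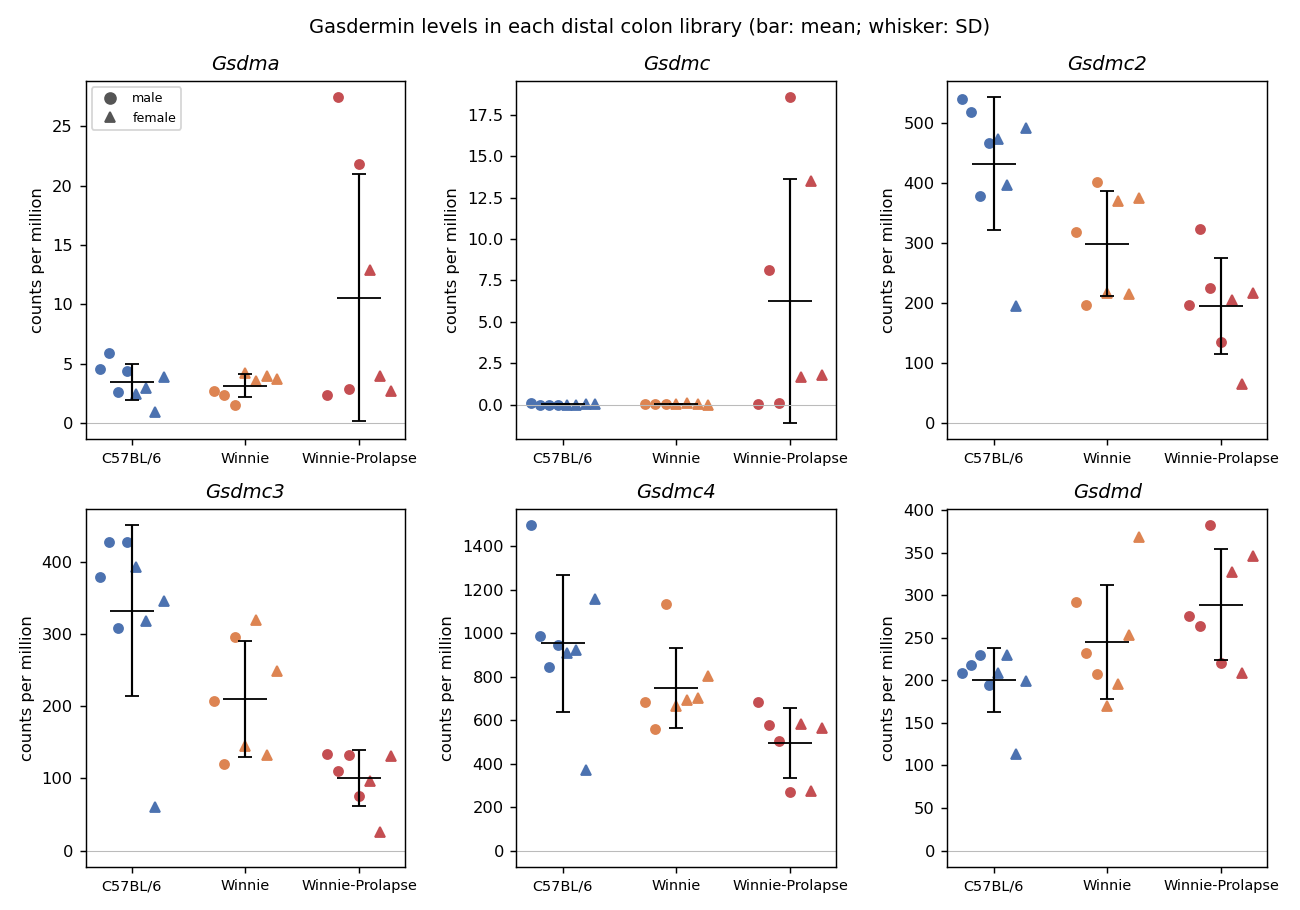
Level of each gasdermin in CPM (vertical axis, linear, 1 panel per gene) in each library of the 3 groups; circles are males, triangles females, the bar is the group mean and the whisker the SD (8 C57BL/6, 7 Winnie and 7 Winnie-Prolapse mice). The means of Gsdmc2, Gsdmc3 and Gsdmc4 step down across the groups while single libraries of neighbouring groups overlap, and Gsdmc lies at 0 or near it outside 5 Winnie-Prolapse libraries.

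Gsdmc2 ranged from 194 to 539 CPM in C57BL/6 (median 469), from 196 to 402 CPM in Winnie (median 318) and from 64.1 to 323 CPM in Winnie-Prolapse (median 205). All 7 Winnie-Prolapse libraries were below 7 of the 8 C57BL/6 libraries, and the groups overlapped only through C57BL/6 replicate 7, the lowest of its group. The mean was lower by more than the SD of either group, at 195 CPM (SD 80.2, n = 7) against 432 CPM (SD 111, n = 8) in C57BL/6. In edgeR's quasi-likelihood test the log2 fold change of Gsdmc2 in Winnie-Prolapse against C57BL/6 was -1.09 (SE 0.25, adjusted p = 0.00204). Without C57BL/6 replicate 7 it was -1.19 (adjusted p = 0.000439), which passes the study's limits.

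Gsdmc3 showed the largest fall of the cluster on the log2 scale. It ranged from 60.8 to 427 CPM in C57BL/6 (median 362), from 119.6 to 319.6 CPM in Winnie (median 207) and from 25.7 to 133 CPM in Winnie-Prolapse (median 110.0). Every Winnie-Prolapse library was below 7 of 8 C57BL/6 libraries, and Winnie libraries spread over the gap between them. C57BL/6 mice averaged 332 CPM (SD 119, n = 8) and Winnie-Prolapse mice 101 CPM (SD 39.4, n = 7). In the fit this was a log2 difference of -1.65 (SE 0.36, adjusted p = 0.00125), and -1.80 (adjusted p = 4.75e-05) without C57BL/6 replicate 7. Fitted with all 3 groups together, it was -1.64 with an adjusted p of 0.000473.

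Gsdmc4, the most abundant member, ranged from 369.8 to 1499 CPM in C57BL/6 (median 933), from 562 to 1134 CPM in Winnie (median 692) and from 268 to 685 CPM in Winnie-Prolapse (median 565). Its Winnie-Prolapse libraries were again all below 7 of 8 C57BL/6 libraries. C57BL/6 mice averaged 955 CPM (SD 315, n = 8) and Winnie-Prolapse mice 495 CPM (SD 161, n = 7), and the log2 fold change was -0.87 (SE 0.25, adjusted p = 0.00909), or -0.99 (adjusted p = 0.00120) without C57BL/6 replicate 7.

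Summed over the 4 Gsdmc genes, the cluster held 1719 CPM in C57BL/6 (SD 516, n = 8), 1257 CPM in Winnie (SD 320.5, n = 7) and 796 CPM in Winnie-Prolapse (SD 255, n = 7). The sums ran from 625 to 2417 CPM in C57BL/6, from 877 to 1832 CPM in Winnie and from 378 to 1021 CPM in Winnie-Prolapse. The lowest C57BL/6 sum, that of replicate 7, was below every Winnie library and inside the Winnie-Prolapse range. Gsdmc4 made up 55.6% (SD 4.10) of the cluster in C57BL/6 and 62.5% (SD 6.60) in Winnie-Prolapse. The share of Gsdmc3 was 18.7% (SD 4.44) in C57BL/6, 16.3% (SD 3.51) in Winnie and 12.4% (SD 3.11) in Winnie-Prolapse, with ranges of 9.74% to 23.2% in the first and 6.80% to 15.3% in the last. These sums and shares are given as a description, and since near-identical reads may be split among the copies the shares carry that uncertainty.

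Between the groups, the cluster fell together with markers of surface colonocytes, the absorptive cells at the top of the crypt. The surface colonocyte list (6 genes, among them Slc26a3, Car4 and Car1) summed to 5961 to 9515 CPM in C57BL/6, 1423 to 9105 CPM in Winnie and 470 to 4329 CPM in Winnie-Prolapse. None of these 6 genes was at 0 in every library, and 5 of 6 were lower in Winnie-Prolapse than in C57BL/6 at an adjusted p under 0.05 and 1.5-fold, where 17.7% of all genes were. The epithelium list had 0 of 7 genes lower and 1 higher at that limit, Krt20, a keratin of differentiated intestinal epithelium (log2 difference 0.87, SE 0.34, edgeR adjusted p = 0.0397, named after its value was seen). Smooth muscle genes fell as well. All 6 of their list, among them Myh11, Tagln and Acta2, were lower at the study's limits, where 8.47% of all genes were, and the list summed to 6686 to 12048 CPM in C57BL/6, 1986 to 7309 CPM in Winnie and 1309 to 3178 CPM in Winnie-Prolapse. Within the groups the surface colonocyte and cluster sums went together in some libraries and not in others. Winnie replicate 2 was the lowest of its group in both, with a surface sum of 1423 CPM and a cluster sum of 877 CPM. Winnie-Prolapse replicates 4 and 6 lay below the rest of their group in both sums. Other libraries went the other way. In C57BL/6 replicate 7 the cluster was low while the surface colonocyte sum was the highest of the group, at 9515 CPM. Winnie replicates 4 and 6 had surface sums of 8542 and 7754 CPM with cluster sums of 1027 and 1050.3 CPM, whereas Winnie replicate 3 had 3260 CPM with the highest cluster of its group, 1832 CPM. Winnie-Prolapse replicate 3 had the highest surface sum of its group, 4329 CPM, with a cluster sum of 863 CPM, and replicate 2 had 707 CPM with the highest cluster, 1021 CPM. The part of surface colonocytes or of smooth muscle in the fall of the cluster was not tested. Without the 5 Winnie-Prolapse libraries rich in squamous genes, which leaves 2 in that group, the log2 fold changes were -0.86 for Gsdmc2 (adjusted p = 0.0731), -1.15 for Gsdmc3 (adjusted p = 0.138) and -0.53 for Gsdmc4 (adjusted p = 0.330).

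Gsdmd, the executioner of inflammasome pyroptosis, ranged from 114 to 229.9 CPM in C57BL/6 (median 209), from 169.9 to 368 CPM in Winnie (median 232) and from 209 to 383 CPM in Winnie-Prolapse (median 275). The lowest Winnie-Prolapse libraries lay inside the C57BL/6 range, and 5 of 7 lay above it. With TMM scaling Winnie-Prolapse replicate 6, at 255 CPM, also lay above the highest C57BL/6 library, at 228 CPM. Winnie-Prolapse mice averaged 289 CPM (SD 65.1, n = 7), against 200.5 CPM (SD 37.4, n = 8) in healthy colon. The log2 fold change in Winnie-Prolapse against C57BL/6 was 0.62 (SE 0.16, adjusted p = 0.00504). Without C57BL/6 replicate 7 it was 0.54 (adjusted p = 0.00513) and on library totals 0.54 (adjusted p = 0.00820), both under 1.5-fold, and in males alone it was 0.48 (adjusted p = 0.139). It was 0.90 (adjusted p = 0.0181) without the 5 libraries rich in squamous genes. The myeloid list (7 genes, among them Lyz2 and Cd14) moved in the same direction, with sums of 83.3 to 217 CPM in C57BL/6 and 242 to 709 CPM in Winnie-Prolapse, and its part in the Gsdmd difference was not tested. Winnie-Prolapse replicate 3 had the highest Gsdmd of its group and a myeloid sum of 318 CPM, while replicate 7 had a myeloid sum of 709 CPM and a Gsdmd level of 346 CPM.

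Gsdmc itself was nearly silent outside the prolapse group. It had 5 counts over all 8 C57BL/6 libraries, with 0 in 5 of them, and 7 counts over the 7 Winnie libraries, so each was at or below the limit that a count of 0 allows. In Winnie-Prolapse it reached 1254 counts. The levels there were 0.0592, 8.15, 0.0908, 18.6, 1.63, 13.5 and 1.80 CPM in replicates 1 to 7. Replicates 2, 4, 5, 6 and 7 were far above every other library, and replicates 1 and 3 were within the range of C57BL/6. The pooled rate in Winnie-Prolapse was 270.1 times that in C57BL/6, with an exact 95% interval of 115 to 833 that covers counting error only and not the spread between mice. C57BL/6 replicate 1 held 3 of the 5 C57BL/6 counts, and without it the ratio was 588 (162 to 4862). Without Winnie-Prolapse replicate 4 it was 174 (74.2 to 538). Gsdmc did not pass the low-count filter of the main test. With no filter it passed the study's limits in Winnie-Prolapse against C57BL/6 (edgeR, adjusted p = 0.000101), as it did in DESeq2 (adjusted p = 2.95e-09), and its fitted fold change is not given because it depends on the prior count.

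Gsdma ranged from 0.906 to 5.91 CPM in C57BL/6 (median 3.38) and from 1.47 to 4.19 CPM in Winnie (median 3.54). In Winnie-Prolapse it was 2.31, 27.5, 2.81, 21.8, 12.8, 3.99 and 2.65 CPM in replicates 1 to 7. Replicates 2, 4 and 5 lay above all other libraries of the study, and the other 4 lay inside the C57BL/6 range. The log2 fold change of Gsdma was 1.61 in Winnie-Prolapse against C57BL/6 (SE 0.52, edgeR adjusted p = 0.0169). It was 1.46 (adjusted p = 0.0242) without C57BL/6 replicate 7. Without the libraries rich in squamous genes it turned to -0.25 (adjusted p = 0.751).

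Both genes were high only in libraries that also held squamous genes. The 5 Winnie-Prolapse libraries with Gsdmc above 1 CPM were the 5 with squamous sums of 178 to 2653 CPM, and the 3 with Gsdma above 10 CPM were among them. The amounts did not run in parallel. Replicate 7 had the highest squamous sum, 2653 CPM, with 1.80 CPM of Gsdmc and 2.65 CPM of Gsdma, whereas replicate 6 had a squamous sum of 242 CPM with 13.5 CPM of Gsdmc. Winnie replicate 2, with a squamous sum of 52.9 CPM, had 1 count of Gsdmc. The part of squamous epithelium in these levels was not tested.

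**Figure D2:**
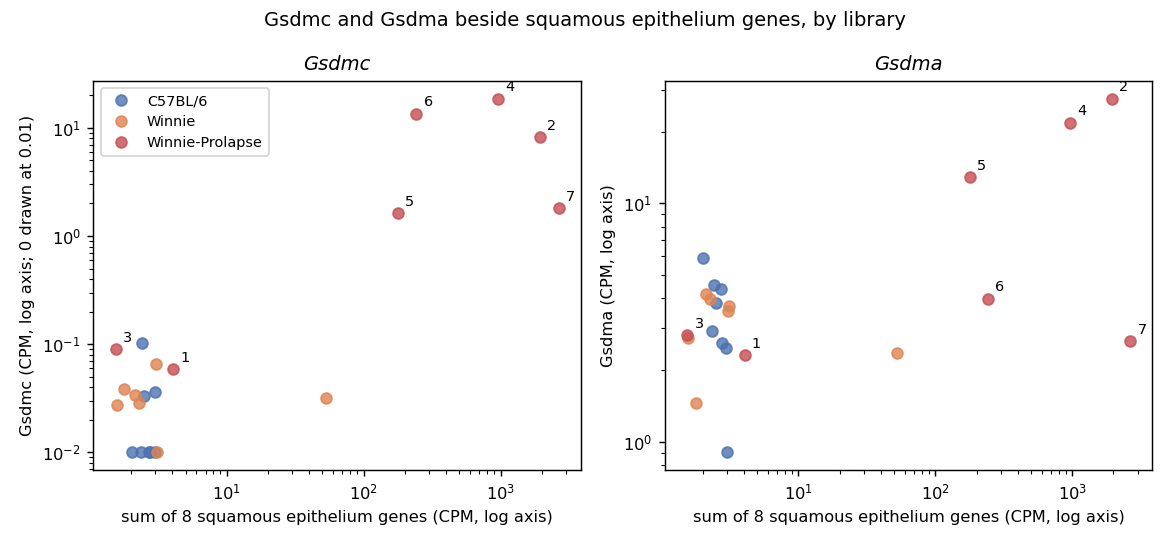
Gsdmc (left) and Gsdma (right) in CPM against the summed CPM of 8 squamous epithelium genes, each point 1 library, all axes logarithmic, with libraries at 0 counts of Gsdmc drawn at 0.01 and Winnie-Prolapse points numbered by replicate. The 5 Winnie-Prolapse libraries at the right hold all Gsdmc levels above 1 CPM, and replicates 2, 4 and 5 of them hold the Gsdma levels above 10 CPM.

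Between Winnie and C57BL/6, both at 14 weeks, no gasdermin was called. In this comparison 0.0925% of the 17289 tested genes reached an adjusted p under 0.001 with 1.5-fold, and 15.9% reached an adjusted p under 0.05 with the same fold. The log2 fold changes in edgeR's test were -0.45 for Gsdmc2 (SE 0.21, adjusted p = 0.112), -0.59 for Gsdmc3 (SE 0.31, adjusted p = 0.173) and -0.28 for Gsdmc4 (SE 0.22, adjusted p = 0.365). Gsdmd stood at 0.39 (SE 0.18, adjusted p = 0.120) and Gsdma at -0.03 (SE 0.32, adjusted p = 0.955). At an unadjusted p under 0.05 there were 2 of 5, Gsdmc2 and Gsdmd, against 39.9% of all genes tested, and DESeq2 called 0. Without C57BL/6 replicate 7 the log2 difference was -0.56 for Gsdmc2 (adjusted p = 0.0205), under 1.5-fold, and -0.75 for Gsdmc3 (adjusted p = 0.0135), which passes the limit of 0.05 with 1.5-fold. The Winnie libraries themselves were uneven, with Gsdmc3 at 120, 133 and 145 CPM in replicates 2, 6 and 4 and at 319.6 and 296 CPM in replicates 5 and 3.

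Between Winnie-Prolapse and C57BL/6, 0 of 5 gasdermins tested were called at an adjusted p under 0.001 and 1.5-fold, where 18.3% of 17397 genes were. At an adjusted p under 0.05 and 1.5-fold, 5 of 5 were called, where 34.4% of all genes were. Of the 5, 2 were higher and 3 lower, beside 16.7% higher and 17.7% lower over all genes. The median log2 fold change of the 5 was -0.87, the value of Gsdmc4, beside -0.01 over all genes tested. Gsdmc2, Gsdmc3 and Gsdmc4 are near copies with a rho of 0.89 to 0.94 over the libraries, so the 5 are not separate measurements.

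Between Winnie-Prolapse and Winnie, 0 of 5 were called at an adjusted p under 0.001, where 0% of 17041 genes were, and 1 of 5 at 0.05, where 6.99% were. That gene was Gsdmc3, with a fitted log2 change of -1.06 (SE 0.31, adjusted p = 0.0465) and an adjusted p of 0.0234 to 0.0988 when 1 library was left out. It passed this limit in 8 of 25 alternative fits. The others in edgeR's test were Gsdma at 1.63 (SE 0.53, adjusted p = 0.0667), Gsdmc4 at -0.60 (SE 0.21, adjusted p = 0.0826), Gsdmc2 at -0.63 (SE 0.26, adjusted p = 0.125) and Gsdmd at 0.24 (SE 0.20, adjusted p = 0.455). At an unadjusted p under 0.05 there were 4 of 5, against 27.8% of all genes tested. DESeq2 called 1 gasdermin at an adjusted p under 0.001, Gsdmc (adjusted p = 8.09e-09), which edgeR without the filter did not (adjusted p = 0.0104). The 3 comparisons share libraries, so they are set side by side and not read as separate evidence.

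**Figure D3:**
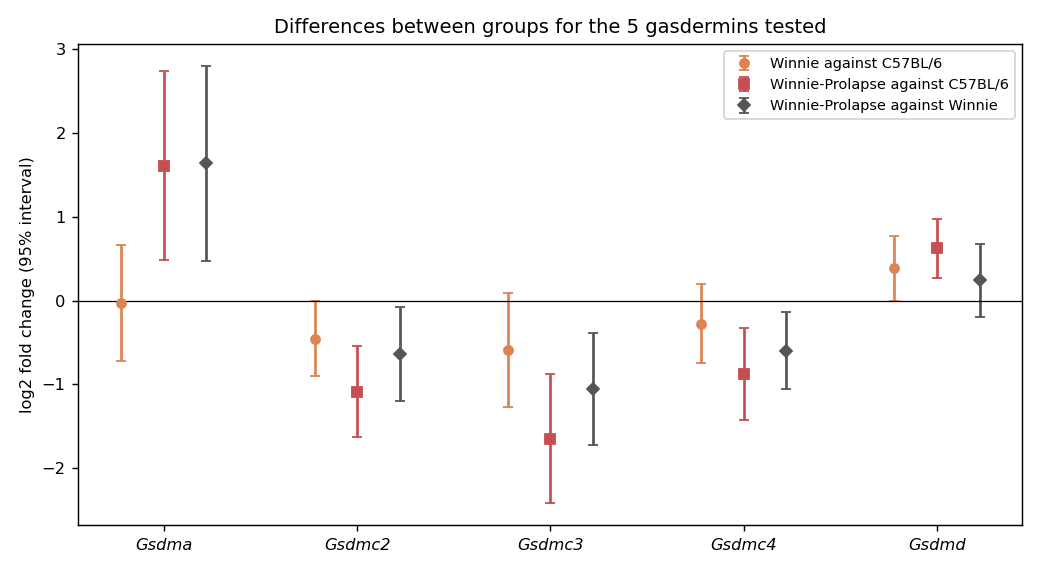
Log2 fold change (vertical axis) for the 5 gasdermins tested, in Winnie against C57BL/6 (circles), Winnie-Prolapse against C57BL/6 (squares) and Winnie-Prolapse against Winnie (diamonds). The 95% interval was made from the SE of edgeR's quasi-likelihood fit and a t distribution. In Winnie-Prolapse against C57BL/6 the interval lies below 0 for Gsdmc2, Gsdmc3 and Gsdmc4 and above 0 for Gsdma and Gsdmd.

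A sex by group interaction tested whether the difference from C57BL/6 differed between males and females. Males and females were not tested against each other within a group. In Winnie colon Gsdma was 2.19 CPM in males (SD 0.649, n = 3) and 3.85 CPM in females (SD 0.283, n = 4), whereas in C57BL/6 it was 4.36 CPM in males (SD 1.36, n = 4) and 2.53 CPM in females (SD 1.23, n = 4). The interaction of Gsdma, as male minus female log2 fold change, was -1.68 (SE 0.91, edgeR adjusted p = 0.437). For Gsdmc2, Gsdmc3, Gsdmc4 and Gsdmd the adjusted p was 0.731 to 0.798 in Winnie, and in Winnie-Prolapse it was 0.985 or more for these and Gsdma. Gsdmc had too few counts in C57BL/6 and Winnie for this test to bear on it. Over all 18911 genes the interaction was called for 0 (0%) in either group at an adjusted p under 0.05, while 2476 in Winnie (13.1%) and 945 in Winnie-Prolapse (5%) had an unadjusted p under 0.05.

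Of the 4 gasdermin genes outside the members, Gsdme was the 1 that passed the filter. Gsdme, which is cut by caspase-3 and granzyme B, ranged from 2.82 to 11.1 CPM in C57BL/6 (median 3.86), from 1.54 to 4.23 CPM in Winnie (median 2.28) and from 1.32 to 2.27 CPM in Winnie-Prolapse (median 2.12). Its Winnie-Prolapse and C57BL/6 libraries did not overlap, which held for 9.45% of all genes in the direction lower in Winnie-Prolapse. The log2 fold change of Gsdme was -1.20 (SE 0.29, edgeR adjusted p = 0.00262), and -0.87 (adjusted p = 0.00102) without C57BL/6 replicate 7, its highest library. Its gene body overlaps Mpp6 on the opposite strand. Gsdma2 and Gsdma3, which neighbour Gsdma on chromosome 11, had 22 and 21 counts in Winnie-Prolapse replicate 2, the library highest in Gsdma, and 0 counts in all C57BL/6 libraries. Pjvk, the pejvakin gene, had at most 3 counts in any library. The Gsdmc pseudogene Gsdmcl-ps, looked at after the values were seen, ranged from 2.25 to 8.92 CPM in C57BL/6 and from 2.26 to 9.57 CPM in Winnie-Prolapse.

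Genes that act with the gasdermins were counted by role. Of 12 inflammasome sensors and the adaptor, 11 were tested, and 2 were higher and 0 lower in Winnie-Prolapse than in C57BL/6 at the study's limits, where 9.84% and 8.47% of all genes were. The 2, named here after their values were seen, were Nlrp3 (log2 fold change 5.09, SE 0.61, edgeR adjusted p = 9.09e-06) and Mefv (3.03, SE 0.30, adjusted p = 1.63e-06), a pair of sensors of myeloid cells. The most abundant sensors of the list did not pass the test. Naip1, a sensor of bacterial secretion needles, stood at 0.09 on the log2 scale (SE 0.14, adjusted p = 0.581), Nlrp6, an epithelial sensor, -0.20 (SE 0.18, adjusted p = 0.355) and Naip6, a flagellin sensor, 0.00 (SE 0.12, adjusted p = 0.983).

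Of 9 proteases that cut gasdermins, 7 were tested and 2 were higher at the study's limits (9.84% of all genes were), Gzma and Gzmb, the granzymes of cytotoxic lymphocytes (named after their values were seen). Gzmb rose to 3.83 CPM (SD 1.22, n = 7) over a C57BL/6 mean of 0.257 CPM (SD 0.146, n = 8). Casp1, which cuts Gsdmd, was 126 CPM in C57BL/6 (SD 9.82, n = 8) and 122 CPM in Winnie-Prolapse (SD 25.5, n = 7), with a fitted log2 change of 0.04 (SE 0.13, edgeR adjusted p = 0.795). Casp4, whose product also cuts Gsdmd, was 32.0 CPM in C57BL/6 (SD 11.1, n = 8) and 52.7 CPM in Winnie-Prolapse (SD 12.0, n = 7), a log2 difference of 0.80 (SE 0.20, edgeR adjusted p = 0.00318; named after its value was seen). At an adjusted p under 0.05 and 1.5-fold, 5 of the 7 were higher in Winnie-Prolapse, where 16.7% of all genes were. Casp8, which can cut both Gsdmd and Gsdmc proteins, had a log2 difference of 0.82 (SE 0.18, adjusted p = 0.00167). Between Winnie and C57BL/6, 0 proteases were higher at the study's limits and 3 at 0.05, where 0.0868% and 7.42% of all genes were.

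Among the 4 genes for pyroptotic cytokines and the rupture protein, 2 were higher and 1 lower in Winnie-Prolapse than in C57BL/6 at the study's limits, where 9.84% and 8.47% of all genes were. Il1b rose to 104 CPM (SD 93.8, n = 7) over a C57BL/6 mean of 0.887 CPM (SD 0.560, n = 8), a fitted log2 change of 6.93 (SE 0.60, edgeR adjusted p = 4.83e-07). Il18, made by the epithelium, fell to 44.7 CPM (SD 13.3, n = 7) under a C57BL/6 mean of 132 CPM (SD 41.9, n = 8), with a fitted log2 change of -1.46 (SE 0.24, adjusted p = 0.000140). Il1a, named after its value was seen, was the other member called higher. Ninj1, which encodes the protein that ruptures the membrane after pore formation, had a median of 21.9 CPM in C57BL/6 (range 20.1 to 23.4) and 20.2 CPM in Winnie-Prolapse (range 17.6 to 27.9), with a fitted log2 change of 0.03 (SE 0.08, adjusted p = 0.732).

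**Figure D4:**
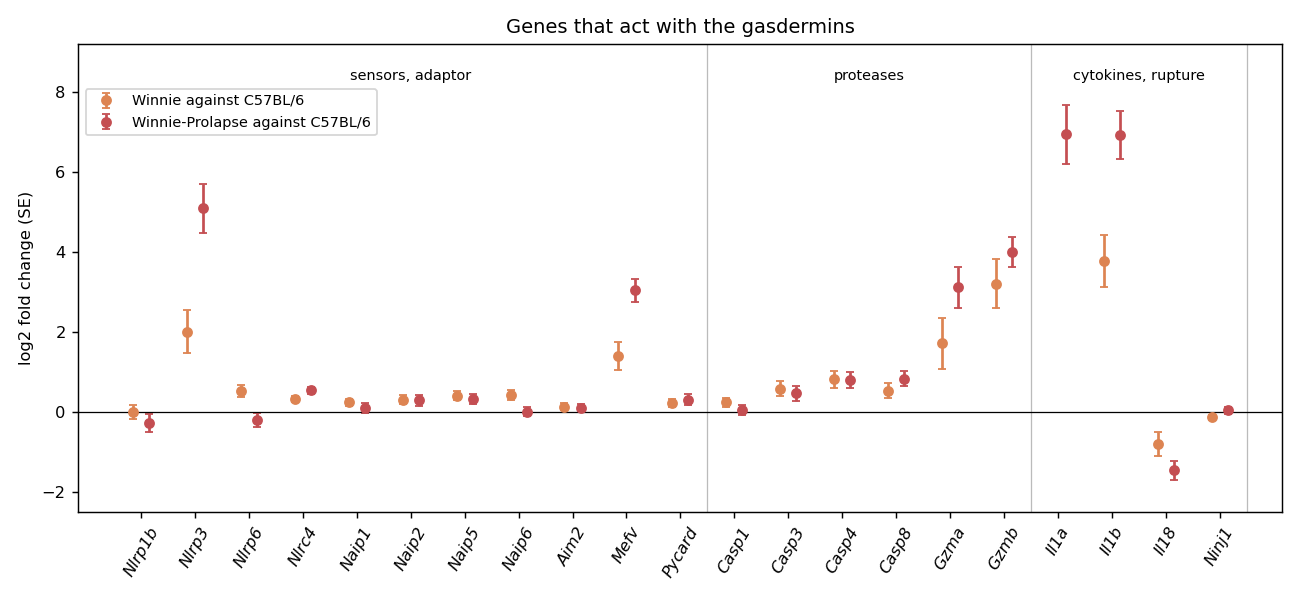
Log2 fold change with its SE (vertical axis) of the inflammasome sensors and adaptor, the proteases that cut gasdermins and the cytokine and rupture genes that passed the filter, apart from 1 protease not drawn, for Winnie (orange) and Winnie-Prolapse (red) against the same C57BL/6 libraries. For Winnie-Prolapse, Il1b at 6.93 lies at the upper end beside Il1a, Il18 at -1.46 is the lowest of the genes drawn, and Casp1 is at 0.04.

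The type 2 epithelial response list was included because Gsdmc genes respond to interleukin-4 and interleukin-13. Of its 9 genes, 6 were tested and 2 were higher in Winnie-Prolapse than in C57BL/6 at the study's limits (9.84% of all genes were), the receptor genes Il4ra (log2 fold change 2.35, SE 0.22, edgeR adjusted p = 1.21e-06) and Il13ra1 (0.61, SE 0.07, adjusted p = 1.09e-05). At an adjusted p under 0.05 with 1.5-fold there were 3 higher and 1 lower (16.7% and 17.7% of all genes were), the latter Dclk1, a tuft cell marker (log2 fold change -1.01, SE 0.28, adjusted p = 0.00733, named after its value was seen). Stat6, the transcription factor below them, had a log2 difference of 0.16 (SE 0.12, adjusted p = 0.277). The cytokine genes Il4 and Il13, outside the 3 most abundant of the list and named after their values were seen, reached at most 0.0656 and 0.0771 CPM in any library, which is within the limit a count of 0 allows, so a change in them was not detectable at this depth. Of 5 interferon regulators, 4 were higher in Winnie-Prolapse at the study's limits (9.84% of all genes were), among them Irf1 (log2 fold change 1.38, SE 0.13, adjusted p = 1.44e-06) and Irf8 (1.15, SE 0.13, adjusted p = 7.07e-06), both transcription factors of the interferon response. Irf2, a related factor known to act on the Gsdmd gene, had a log2 difference of -0.46 (SE 0.19, adjusted p = 0.0550).

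Gsdmc2, Gsdmc3 and Gsdmc4 were also alike from library to library, while Gsdmc was not like them. Over the 22 libraries, Spearman's rho of log2 CPM was 0.94 between Gsdmc2 and Gsdmc3, 0.89 between Gsdmc2 and Gsdmc4 and 0.89 between Gsdmc3 and Gsdmc4. After centring on the group means the values were 0.74, 0.69 and 0.62. Gsdmc had a rho of -0.57 with Gsdmc2, -0.65 with Gsdmc3 and -0.60 with Gsdmc4, and of -0.20, -0.47 and -0.34 after centring. Gsdmd was related to Gsdmc3 with a rho of -0.34 over all libraries and 0.35 after centring, so its sign rests on the differences between groups. These values are descriptions over libraries that share groups, tissue composition and, for the copies, possibly reads.

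Among 13590 other genes, those most like Gsdmc3 included Trpv3, a cation channel (rho 0.97), and AI854703 (rho 0.96). Trpv3, Bmp2, a growth factor ligand, and Snw1 led for Gsdmc2 (rho 0.90, 0.90 and 0.89), and Smad2, a transducer of TGF-beta signals, and D630039A03Rik were among those for Gsdmc4 (rho 0.91 and 0.90). Trpv3 thus stood in the leading 3 of both Gsdmc2 and Gsdmc3. For Gsdmd the leading genes were Stx7, a syntaxin of endosomes, Shkbp1 and Tmem253 (rho 0.86, 0.86 and 0.85), and for Gsdma they were Spag1, Pnpla1, a lipid enzyme of the epidermis, and Tmem120b (rho 0.81, 0.69 and 0.67). Centred on the group means, rho was 0.88 for Trpv3 and 0.75 for AI854703 with Gsdmc3. It was 0.84, 0.80 and 0.81 for Stx7, Shkbp1 and Tmem253 with Gsdmd. For Gsdmc2 it dropped to 0.59 with Bmp2, 0.60 with Trpv3 and 0.61 with Snw1, and for Gsdmc4 to 0.62 with Smad2 and 0.58 with D630039A03Rik. With Gsdma it was 0.76 for Spag1, 0.82 for Pnpla1 and 0.42 for Tmem120b.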

How the data were processed

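RNA sequencing measured polyadenylated RNA of distal colon, 1 library per mouse. The authors prepared stranded libraries and deposited raw counts per gene (build GRCm38, with STAR, featureCounts and limma named in the submitters' processing notes), as whole numbers with no normalization. The annotation release and how multi-gene reads were treated are not given in the sources used here. Groups, sex and age were read from the labels, and replicate numbers follow the sample list and pair no mice. The labels name no batch. Positions, lengths and coding sequences came from GENCODE M21.

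The test was that of edgeR 4.0.16, run in R 4.3.3 (quasi-likelihood F test, TMM factors, filterByExpr, Benjamini-Hochberg adjustment over all genes tested), each pair of groups by itself and without covariates. The limits were an adjusted p under 0.001 and a 1.5-fold change, and a second limit of 0.05 was used with the same fold. The SE of a log2 fold change is its size divided by the square root of F. CPM are counts scaled by the library total. Likeness used log2 CPM with a prior count of 2 and genes with an average of at least 1. The exact interval of a ratio of pooled rates was Clopper-Pearson. Intervals and the limit of 3 counts speak of counting error alone, PCR copies not being separate molecules. Coding sequences were aligned with Biopython 1.88. Alternatives were library totals, DESeq2 1.42.0, other filters, a sex covariate, a joint fit of all groups, each sex alone, a robust fit and leaving out each library.

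On simulated data from the real means and library sizes, at the limit of 0.001, 78 of 200 simulated 2-fold changes and 165 of 200 at 4-fold were found for Winnie-Prolapse against C57BL/6, with 0 false calls. For Winnie against C57BL/6 the numbers were 91 and 172 of 200 and for Winnie-Prolapse against Winnie 57 and 173 of 200. For the interaction, 176 of 200 simulated 8-fold changes were found, beside 10 false calls. No libraries of a group agreed within sampling noise (lowest chi-square per degree of freedom 28.8).

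The members and lists were chosen with earlier results of these data known. Every member and every gene of the other gasdermin list was named, and from each other list at most 3 genes of highest mean CPM among those described. For each member that passed the filter over all libraries, except Gsdmc, the 3 most similar genes were named, apart from items that are not reported here. Genes named outside this rule, after their values were seen, are said to be so.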

Additional observations from a re-analysis of the deposited data

Results flagged for a closer look

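In 21 sets of values (6 gasdermins and the cluster sum in 3 groups), 5 had 1 library whose gap to the nearest other was large against the range of its group by Dixon's criterion, where chance gives about 1 in 20. In C57BL/6 replicate 7, Gsdmc2 was lowest at 194 CPM, with the next library at 377 CPM. Gsdmc3 was lowest there at 60.8 CPM, with the next at 309 CPM. Gsdmd was lowest there at 114 CPM, with the next at 195 CPM. In Winnie replicate 3, Gsdmc4 was highest at 1134 CPM, with the next at 802 CPM. In C57BL/6 replicate 1, Gsdmc was highest at 0.103 CPM, which is 3 counts.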

How the results depend on the processing

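At the study's limits 0 of the 5 gasdermins tested were called in any comparison, so no such call could be lost. At an adjusted p under 0.05 with 1.5-fold, read in every alternative after seeing the data, the 5 calls in Winnie-Prolapse against C57BL/6 were fewer in 8 of 26 alternatives, Gsdmc3 in Winnie-Prolapse against Winnie was lost in 17 of 25, and in Winnie against C57BL/6 (0 calls) Gsdmc3 passed in 3 of 25. In Winnie-Prolapse against Winnie, Gsdma was gained with DESeq2, with all groups in one fit and without Winnie-Prolapse replicate 1 or 3, and Gsdmc4 with DESeq2. In Winnie against C57BL/6, Gsdmc2 was gained without C57BL/6 replicate 7 and Winnie replicate 5. Of 380 alternative fits of single gasdermins, 9 changed the sign. Of these 9 changes, 7 were of Gsdma in Winnie against C57BL/6, whose main value was -0.03: it was 0.72 in females alone (-0.95 in males alone, adjusted p = 0.0568, edgeR), and the fits with 1 library left out ran from -0.17 to 0.12, on both sides of 0. The other 2 were of Gsdma without the 5 Winnie-Prolapse libraries rich in squamous genes, at -0.248 against C57BL/6 and -0.247 against Winnie (chosen after seeing the data). The cause was not tested.

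The main test, which did not test Gsdmc, called 0 gasdermins in Winnie-Prolapse against C57BL/6. The alternatives called 3 with DESeq2 (Gsdmc2, Gsdmc3 and Gsdmc), 1 without the low-count filter (Gsdmc) and 1 with all 3 groups in one fit (Gsdmc3). There were 5 at an adjusted p under 0.05, and 0 to 2 with 1 library left out (2 without C57BL/6 replicate 7). In Winnie-Prolapse against Winnie the calls were 1 with DESeq2 (Gsdmc) and 1 at an adjusted p under 0.05 (Gsdmc3).

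Over all genes, calls in Winnie against C57BL/6 (16 in the main test) were 8 on library totals, 1258 with DESeq2, 68 without the filter, 0 with at least 10 counts in every library, 199 with all groups in one fit, 130 in males, 0 in females, 2757 at an adjusted p under 0.05, 10 in the robust fit, 0 to 677 with 1 library left out (677 without Winnie replicate 5, and off by over 1.5 times without any library but Winnie replicate 3) and 1001 without C57BL/6 replicate 7 and Winnie replicate 5 (chosen after seeing the data). In Winnie-Prolapse against C57BL/6 (3186) they were 5043 with DESeq2, 307 in males, 255 in females, 5981 at an adjusted p under 0.05 and 468 without the 5 libraries rich in squamous genes. In Winnie-Prolapse against Winnie (0) they were 678 with DESeq2, 42 with all groups in one fit, 54 in females, 1191 at an adjusted p under 0.05 and 0 to 1 with 1 library left out (1 without Winnie-Prolapse replicate 2). Interaction calls (0) with 1 library left out were 0 to 22 for Winnie (22 without Winnie replicate 7, 15 without Winnie-Prolapse replicate 4, 1 without C57BL/6 replicate 4) and 0 to 5 for Winnie-Prolapse (5 without its replicate 7, 2 without its replicate 5, 1 without C57BL/6 replicate 4).

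With 1 library left out, interaction values that changed sign were, for Winnie, -0.94 to 2.32 for Gsdmc and, for Winnie-Prolapse, -0.44 to 0.93 for Gsdma, -1.84 to 2.28 for Gsdmc, -0.26 to 0.34 for Gsdmc2 and -0.49 to 0.39 for Gsdmc3. On coding length the C57BL/6 levels were 2.58 CPM per kb for Gsdma, 299.7 for Gsdmc2, 231 for Gsdmc3, 663 for Gsdmc4 and 137 for Gsdmd, in the same order. No paired analysis was possible because the replicate numbers only follow the sample list and pair no mice. At 24.8 to 36.3 M counts per library, levels below about 0.121 CPM could not be told from 0.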
